A study of Saccharomyces cerevisiae with 18 samples.

Results

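The genes described here encode RNA polymerase I of budding yeast and the factor that brings it to its promoter. They are 10 of the 6205 open reading frames (ORFs) in the deposited table, and were taken by systematic name. RPA190 (YOR341W) and RPA135 (YPR010C) encode the largest subunits, which form the active centre. RPC40 (YPR110C) and RPC19 (YNL113W) encode assembly subunits that RNA polymerase I shares with RNA polymerase III. RPA12 (YJR063W) encodes a subunit needed for cleavage of the nascent transcript. RPA43 (YOR340C) and RPA14 (YDR156W) encode the stalk, and RPA49 (YNL248C) and RPA34 (YJL148W) encode a dimer that acts in initiation and elongation. RRN3 (YKL125W) encodes the initiation factor that binds the stalk and makes the polymerase able to start transcription. The genes lie on chromosomes IV, X, XI, XIV, XV and XVI, and only RPA43 and RPA190 are neighbours of each other, on opposite strands.

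RNA polymerase I transcribes a single kind of gene, the tandem rDNA repeats that encode the large ribosomal RNAs, and in growing yeast this is the main part of all transcription. Its subunit genes are themselves transcribed by RNA polymerase II. They belong to the ribosome biogenesis regulon, whose transcripts rise with good nutrition and fall in stress. The Ubp10 protein is also known to remove ubiquitin from the Rpa190 protein and so to stabilise it, an effect on protein that these RNA measurements do not read.

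Total RNA of 3 null strains was set against wild type RNA on 18 arrays with 2 channels each. All cells were grown in YEPD, which is rich medium with glucose. The strains were a dot4 ubp8 double null (UCC6393), a dot4 null (UCC6390), a ubp8 null (UCC6392) and the wild type (UCC6389), with 1 strain number for each genotype, so a genotype rests on what may be 1 isolate. DOT4 is now named UBP10, and both UBP10 and UBP8 encode ubiquitin-specific proteases that act on histone H2B. Wild type RNA filled the other channel of every array, so all comparisons share the wild type strain and its own spread is not separated. Each null strain has 3 numbered sets of arrays, and a set holds an array with the null RNA in channel 2 and an array with it in channel 1. Each value is the log2 ratio of a null strain to the wild type after centring every array on its median, and the mean of the 2 arrays of a set is the replicate. Errors written after ± are standard errors of a limma fit to all ORFs with n = 3 set means. A gene is called when its p-value, adjusted by Benjamini and Hochberg over all 6205 ORFs within a comparison, is under 0.05. Whether the sets are separate cultures is not stated in the labels. The p-values therefore measure only how far these arrays spread, which may be technical. RNA of a whole culture also cannot tell a change in every cell from a larger change in some cells.

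Which channel is divided by which is not settled by the labels, although they give the strain in either channel. Read as channel 2 over channel 1, UBP10 lay below 0 on 12 of 12 arrays of the strains lacking it (between -5.58 and -3.88), and UBP8 on 12 of 12 arrays of the strains lacking it (between -3.79 and -1.49). That direction is used here. Dividing the channels in the order of the labels' own wording would reverse every sign below. One double null array, of set 3 with the null RNA in channel 2, has the ubp8 null's strain number in its label. It read UBP10 at -4.67 and UBP8 at -3.38, and the calls that change without it are given with the double null. Auxotrophic marker genes also differed between strains. URA3 was at 1.25 ± 0.09 for the double null, 3.51 ± 0.09 for the dot4 null and -0.36 ± 0.09 for the ubp8 null. ADE2 was at 0.17 ± 0.05, 0.79 ± 0.05 and -0.96 ± 0.05 in the same order. HIS3 was at -0.37 ± 0.05, -1.86 ± 0.05 and -0.34 ± 0.05, and LEU2 at -0.30 ± 0.03, -0.73 ± 0.03 and 0.11 ± 0.03. The part of these differences in the results below was not tested.

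Transcripts of the RNA polymerase I genes rose in the dot4 null. Of the 10 genes 9 were called higher and 0 lower. Calls were common in this comparison, in which 29.9% of all ORFs were called higher and 32.1% lower, 62% in either direction. Without centring all ORFs split into 1805 higher and 563 lower, in place of 1857 and 1993, and 9 of the 10 genes were again called higher. The median over the genes was 0.26, against -0.01 for all ORFs. It was 0.15 on the arrays with the null RNA in channel 1 alone and 0.36 on those with it in channel 2 alone. The changes were small except for RRN3, which was the 1 gene past 1.5-fold, a size that 1.84% of all ORFs reached in this direction. On all 6 arrays of the dot4 null 8 of the genes lay above 0, as did 21% of all ORFs.

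RRN3, the initiation factor gene, read 0.68, 0.67 and 0.71 in sets 1 to 3 of the dot4 null. The 6 arrays spanned 0.54 to 0.87, well clear of 0. The mean was 0.69 ± 0.04, which is 1.61-fold higher than wild type (limma, adjusted p = 1.03e-07), and it ranked 85th from the top of all ORFs. RPA43, the stalk subunit that contacts Rrn3, read 0.38, 0.43 and 0.46 with a mean of 0.42 ± 0.03 (1.34-fold, adjusted p = 8.08e-07). Its lowest array, at 0.28, was above the highest array of the other stalk gene, RPA14, at 0.21. By channel 1 alone RPA190 (0.33) was above RPA43 (0.28), and by channel 2 alone RPC19 (0.69) was above both RRN3 (0.57) and RPA43 (0.56), so the order among these genes is not settled.

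The large subunit genes rose by different amounts in the dot4 null. RPA190 read 0.29, 0.34 and 0.37, a mean of 0.34 ± 0.03 and a 1.26-fold increase (adjusted p = 4.7e-06). RPA135 read 0.15, 0.12 and 0.21, a mean of 0.16 ± 0.05 and a 1.12-fold increase (adjusted p = 0.0101). The set means of RPA190 and RPA135 did not overlap.

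The smaller subunits specific to RNA polymerase I also rose in the dot4 null. RPA12 was at 0.26 ± 0.03, RPA34 at 0.26 ± 0.04 and RPA49 at 0.24 ± 0.03, with set means that overlapped one another. RPA14 was lower among them, at 0.15 ± 0.04 (adjusted p = 0.0073). With channel 1 alone RPA14 (0.124) was not below RPA34 (0.118), so this order is not settled. Of the subunits shared with RNA polymerase III, RPC40 was not called, at 0.05 ± 0.03 (adjusted p = 0.222, 95% interval -0.02 to 0.12). RPC19 was called at 0.33 ± 0.05, but its arrays fell into separate ranges by orientation, as described below.

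Transcripts of the polymerase genes fell in the ubp8 null. Of the 10, 9 were called lower and 0 higher, where 28.7% of all ORFs were called lower and 30% higher, 58.7% in either direction. The median was -0.27, against 0.00 for all ORFs. None of the 10 passed 1.5-fold, a decrease that 0.338% of all ORFs reached. On all 6 arrays of the ubp8 null 8 of the genes lay below 0, as did 20% of all ORFs.

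The active centre genes fell most in the ubp8 null. RPA190 read -0.57, -0.51 and -0.45 in sets 1 to 3, and all 6 arrays lay between -0.62 and -0.28. Its mean was -0.51 ± 0.03, which is 1.43-fold lower than wild type (adjusted p = 1.17e-06). RPA135 read -0.54, -0.52 and -0.42, with arrays between -0.55 and -0.42. Its mean was -0.50 ± 0.05, or 1.41-fold lower (adjusted p = 1.34e-05). Here the set means of RPA190 and RPA135 overlapped each other and lay below those of the other 8 genes.

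The other genes formed a middle band in the ubp8 null. RPA14 was at -0.35 ± 0.04, RPA34 at -0.27 ± 0.04, RPC40 at -0.27 ± 0.03, RPA12 at -0.27 ± 0.03, RRN3 at -0.25 ± 0.04 and RPA49 at -0.23 ± 0.03. Neighbours in this order overlapped in their set means. RRN3 was not set apart here, with set means of -0.29, -0.32 and -0.15. RPA43 fell least of the called genes, at -0.11 ± 0.03 (adjusted p = 0.00649), and its call ended with the null RNA in channel 2 alone (-0.01, adjusted p = 0.911) and without centring (-0.13, adjusted p = 0.236). RPC19 was not called, at -0.02 ± 0.05 (adjusted p = 0.786), and its arrays lay on both sides of 0.

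**Figure D1:**
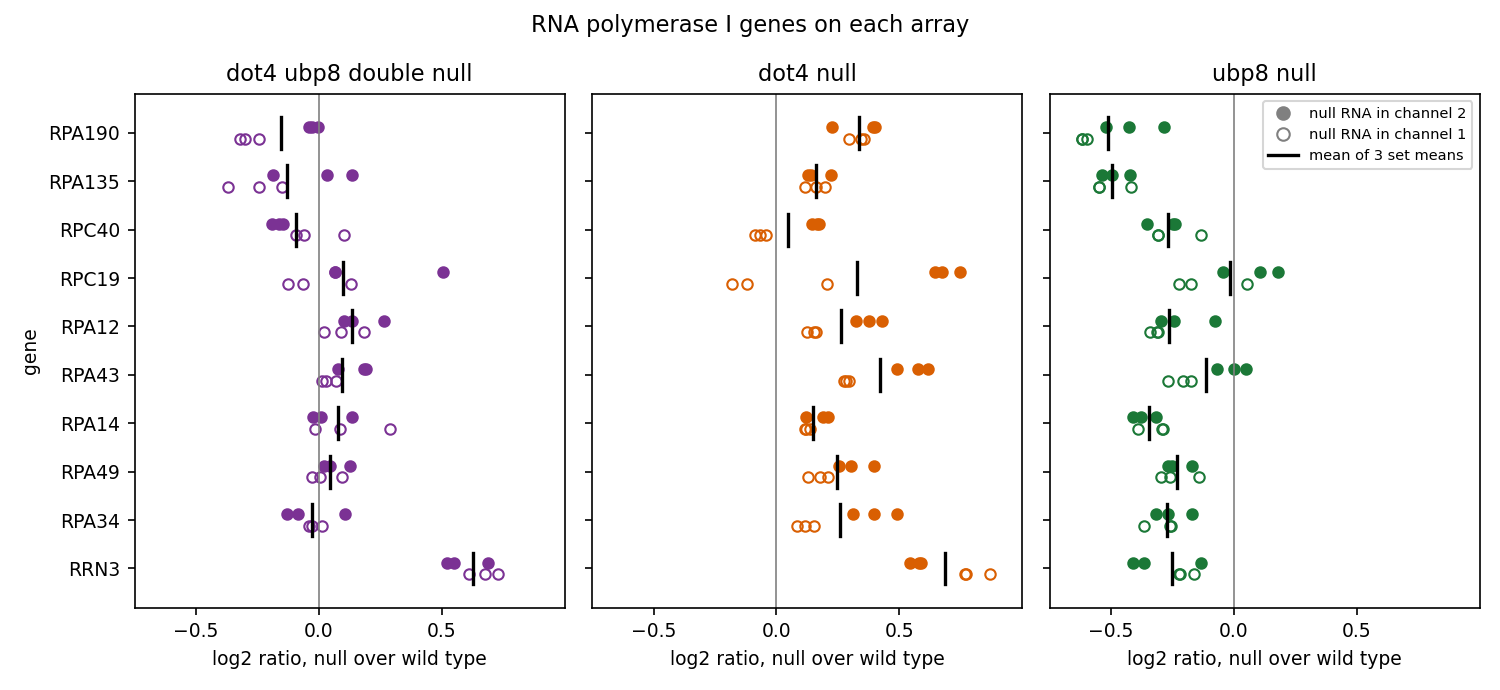
Log2 ratio of null over wild type (x axis) of the 10 genes (rows) on the 6 arrays of each null strain (panels), with filled points for the null RNA in channel 2, open points for channel 1, and black bars for the mean of 3 set means. In the dot4 null 8 genes lie above 0 on all arrays, in the ubp8 null 8 lie below 0 on all arrays, and in the double null most lie near 0 except RRN3 at 0.63.

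The difference between the single nulls was tested directly. In the dot4 null minus the ubp8 null all 10 genes were called higher, where 27.9% of all ORFs were. Without centring 1432 ORFs were called higher and 481 lower in place of 1731 and 1873, and all 10 genes were higher. The set means of the strains did not overlap for any of the 10, as for 32.2% of all ORFs in this direction, and 3 genes passed 1.5-fold (2.74% of all ORFs), or 7 without centring. RRN3 differed by 0.94 ± 0.05 (1.92-fold) and ranked 7th of all ORFs. RPA190 differed by 0.85 ± 0.04 (1.80-fold) and ranked 23rd. RPA135 differed by 0.66 ± 0.06 (1.58-fold, adjusted p = 1.29e-05).

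For the remaining subunits the differences of the dot4 null minus the ubp8 null were close to one another. They were 0.54 ± 0.04 for RPA43, 0.53 ± 0.05 for RPA34, 0.53 ± 0.05 for RPA12, 0.50 ± 0.06 for RPA14 and 0.48 ± 0.05 for RPA49. The shared subunits had the smallest, 0.35 ± 0.08 for RPC19 and 0.32 ± 0.05 for RPC40, although RPC19 was at 0.61 with channel 2 alone. With channel 1 alone RPC19 was not called by limma (0.08, adjusted p = 0.536). Of the 10 genes 8 were among the highest 5% of all ORFs in this comparison, and the shared subunits were not. All 6 arrays of the dot4 null lay above all 6 of the ubp8 null for 9 genes, as for 14.3% of all ORFs, and RPC19 was the exception.

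The double null had means between those of the single nulls for all 10 genes, and the share of all ORFs lying so is not given here. RRN3 and RPA14 were not called apart from the dot4 null, nor RPC19 from the ubp8 null, as described below. Of the 10, 3 were called higher and 3 lower, where 35.3% of all ORFs were called higher and 35.2% lower, 70.5% in either direction. Without centring only RRN3 stayed called, with RPA190 at -0.16 (adjusted p = 0.0804), RPA135 at -0.14 (0.146 for its adjusted p), RPA12 at 0.13 (0.163), RPA43 at 0.09 (0.352) and RPC40 at -0.10 (0.32). The median was 0.06, against 0.00 for all ORFs. Of the 6 called, RRN3 and RPA12 were called the same way in each orientation of the channels. Among all ORFs 46% were, which is 65.3% of those called.

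RRN3 read 0.64, 0.68 and 0.57 in the 3 sets of the double null, with all 6 arrays between 0.52 and 0.73. Its mean was 0.63 ± 0.04, or 1.55-fold above wild type (adjusted p = 8.08e-08), and 5.66% of all ORFs were past 1.5-fold in this direction. RPA12 was at 0.13 ± 0.03 and RPA43 at 0.09 ± 0.03, and both lay above 0 on all 6 arrays, as did RRN3 and 27.8% of all ORFs. The large subunits were below 0. RPA190 read -0.15, -0.14 and -0.18 (-0.16 ± 0.03, adjusted p = 0.000653), and RPA135 read -0.01, -0.11 and -0.28 (-0.13 ± 0.05, adjusted p = 0.0233). RPC40 was called at -0.09 ± 0.03, a call that ended without the array whose strain number goes against its label (-0.07, adjusted p = 0.0775). RPC19, RPA14, RPA49 and RPA34 were not called, with values between -0.03 and 0.10, but RPA14 was called without that array (0.10, adjusted p = 0.0456). In other comparisons, leaving it out ended the call of RPC40 in the double null minus the dot4 null (-0.12, adjusted p = 0.0504) and called RPC19 against the sum of the single nulls (-0.31, adjusted p = 0.0335). Without set 3 of the double null the 6 calls became 3.

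Set against the dot4 null, the double null had lower polymerase transcripts. Of the 10 genes 8 were called lower and 0 higher, where 29.2% of all ORFs were called lower and 29% higher. Without centring 663 ORFs were called higher and 1320 lower in place of 1800 and 1814, and 6 of the 10 genes were lower. RPA190 differed by -0.49 ± 0.04 (adjusted p = 7.15e-06), with next to it RPA43 (-0.33 ± 0.04), RPA135 (-0.29 ± 0.06) and RPA34 (-0.29 ± 0.05). RPC19 (-0.23 ± 0.08), RPA49 (-0.20 ± 0.05), RPC40 (-0.14 ± 0.05) and RPA12 (-0.13 ± 0.05) differed less. RRN3 was not called, at -0.06 ± 0.05 with a 95% interval of -0.17 to 0.05, and neither was RPA14, at -0.07 ± 0.06. With channel 1 alone RRN3 was called lower (-0.13, adjusted p = 0.0381), and with channel 2 alone it was at 0.01. Without set 1 of the double null RPA14 was called lower by limma (-0.14, adjusted p = 0.0207). RPA190, RPA43, RPA49 and RPA34 were called the same way in each orientation, 4 of the 8, where 28.4% of all ORFs and 48.7% of those called were. The count fell to 5 without set 2 of the double null and to 5 without set 2 of the dot4 null.

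Set against the ubp8 null, the double null had higher polymerase transcripts. Of the 10 genes 9 were called higher and 0 lower, where 23.2% of all ORFs were called higher and 21% lower. RRN3 differed by 0.88 ± 0.05, which is 1.84-fold and ranked 43rd of all ORFs (adjusted p = 8.14e-07), and it was the 1 gene past 1.5-fold, as were 1.97% of all ORFs. RPA14 (0.43 ± 0.06), RPA12 (0.40 ± 0.05), RPA135 (0.36 ± 0.06) and RPA190 (0.36 ± 0.04) followed. RPA49 (0.28 ± 0.05), RPA34 (0.25 ± 0.05), RPA43 (0.21 ± 0.04) and RPC40 (0.17 ± 0.05) differed by less, and RPC19 was not called (0.12 ± 0.08, adjusted p = 0.24). The calls held in each orientation for 6 of the 9, where this was so for 21.2% of all ORFs and 48.1% of those called. Without centring 5 genes were called in place of 9, and 615 ORFs were higher and 319 lower in place of 1438 and 1300.

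**Figure D2:**
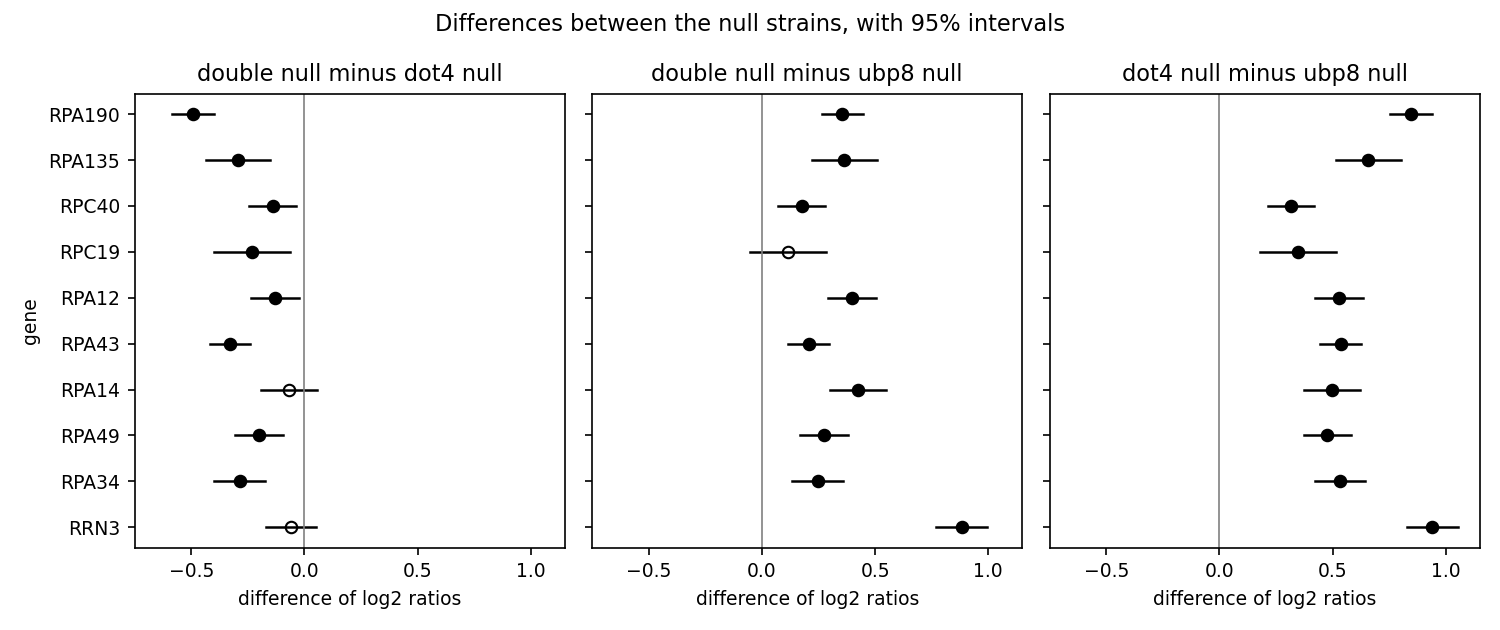
Difference of log2 ratios between null strains (x axis) for the 10 genes (rows), as points with 95% intervals from the limma fit, filled where called. All 10 genes lie right of 0 in the dot4 null minus the ubp8 null, and RRN3 stands apart at 0.88 in the double null minus the ubp8 null while its interval spans 0 in the double null minus the dot4 null.

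The double null was also compared with the sum of the single nulls on the log2 scale. For RPA190 the difference was 0.02 ± 0.05, with a 95% interval of -0.09 to 0.13. RPA49 (0.03 ± 0.06) and RPA34 (-0.01 ± 0.06) were likewise not called. Farther from the sum but also not called were RPA135 (0.20 ± 0.08), RPC19 (-0.21 ± 0.09), RPA12 (0.14 ± 0.06) and RPC40 (0.13 ± 0.06). Their 95% intervals, which are not adjusted over all ORFs, did not include 0. Against the sum 3 genes were called, where 11.9% of all ORFs were called higher and 8.43% lower. RPA14 was 0.28 ± 0.07 above the sum (adjusted p = 0.018), RRN3 was 0.20 ± 0.06 above it (adjusted p = 0.0481), and RPA43 was -0.22 ± 0.05 from it (adjusted p = 0.0135). The RRN3 call was close to the threshold. It ended with channel 1 alone (0.07, adjusted p = 0.386) and with arrays scaled to a common spread (0.20, adjusted p = 0.0796). It also ended without any 1 set of the dot4 null, and without set 1 or 2 of the ubp8 null or of the double null. RPA14 was the 1 gene called the same way in each orientation, as were 4.77% of all ORFs and 23.5% of those called. Without centring limma called 0 of the 10 genes, and of all ORFs 105 higher and 122 lower in place of 739 and 523.

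Some values depended on which channel held the null RNA. RPC19 read 0.75, 0.65 and 0.67 on dot4 null arrays whose channel 2 held the null RNA, and -0.18, 0.20 and -0.12 on those whose channel 1 held it. These ranges did not overlap. The difference of 0.72 between the orientations was larger in size than for 95.5% of all ORFs, and no increase of RPC19 was seen with channel 1 alone (-0.03, adjusted p = 0.732). RPC40 in the dot4 null averaged 0.16 with channel 2 and -0.07 with channel 1. Splits of like size in that strain were seen for RPA34 (0.40 and 0.12), RPA43 (0.56 and 0.28) and RPA12 (0.38 and 0.15). RRN3 split the other way there (0.57 and 0.80). The dot4 null splits of RPC40, RPA34, RPA43, RPA12 and RRN3 were of common size, larger than for 59.9% to 69.4% of all ORFs. RPA190 in the double null averaged -0.02 with channel 2 and -0.29 with channel 1, and RPA135 averaged -0.01 and -0.26. By contrast RPA190 in the dot4 null averaged 0.34 and 0.33, and RPA135 in the ubp8 null averaged -0.49 and -0.51. In the dot4 null 8 genes were called the same way in each orientation (28% of all ORFs, 45.1% of those called), in the ubp8 null 8 (24.2% and 41.3%), and in the dot4 null minus the ubp8 null 9 (31.8% and 54.7%).

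**Figure D3:**
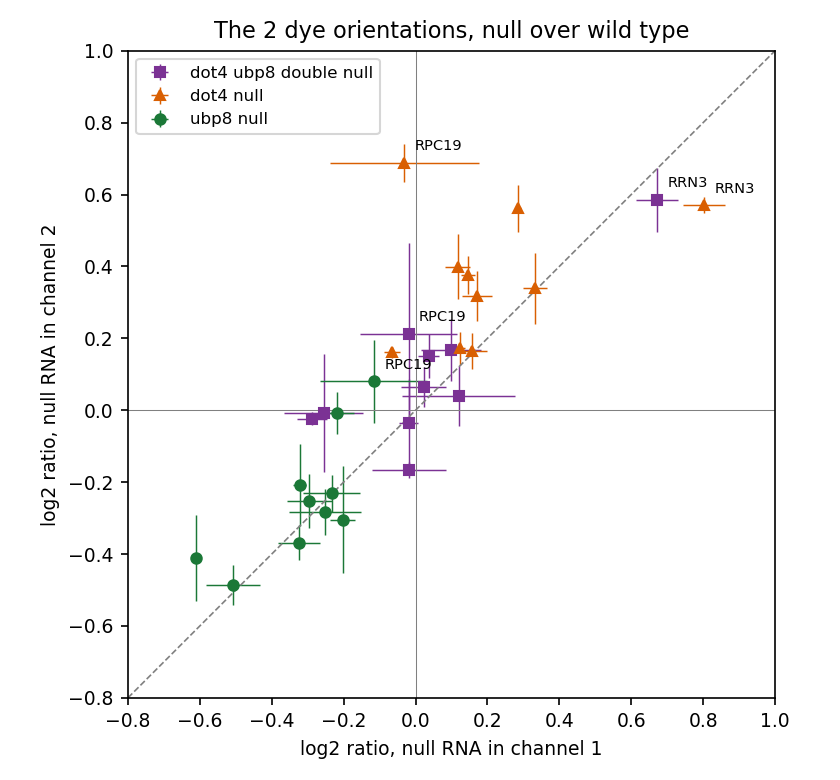
Mean log2 ratio of null over wild type on arrays whose null RNA was in channel 2 (y axis) or channel 1 (x axis), for the 10 genes in each null strain, with bars of 1 SD over 3 arrays and a dashed line where both are equal. RPC19 in the dot4 null lies farthest from the line, at 0.69 with channel 2 and -0.03 with channel 1, while RRN3 is high in both orientations in the double null and the dot4 null.

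RPA43 and RPA190 are transcribed away from each other from the stretch of DNA between them, and their ratios were compared. The difference of their log2 ratios within an array does not depend on centring. RPA43 minus RPA190 was 0.25 ± 0.05 for the double null, 0.09 ± 0.00 for the dot4 null and 0.40 ± 0.03 for the ubp8 null (SD, n = 3 sets). It was above 0 on 6 of 6 arrays of the double null, on 3 of 6 of the dot4 null and on 6 of 6 of the ubp8 null. On the dot4 null arrays it split by orientation, at 0.27, 0.19 and 0.22 with channel 2 and at -0.08, -0.01 and -0.05 with channel 1, so no difference between the neighbours is read there. On all ubp8 null arrays the stalk gene lay above its neighbour, and the stalk gene itself was below 0 on 4 of the 6.

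Profiles across the 9 set means were compared among the 10 genes. Correlations between pairs of genes ranged from 0.62 to 0.99 with a median of 0.91 over 45 pairs, and since all set means share the wild type strain and the array design they are given as a description. RPA49, RPA34 and RPA12 were nearest to the median profile of the group, at Euclidean distances of 0.14, 0.15 and 0.24 on the log2 scale. RRN3 was farthest, at 1.29.

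Outside the group, the 5 ORFs nearest to its median profile over the 9 set means were MTR4, RER2, UTP6, SYO1 and YTM1. MTR4, the RNA helicase of the nuclear exosome, was at a distance of 0.11 and read -0.02 ± 0.03 for the double null, 0.28 ± 0.03 for the dot4 null and -0.25 ± 0.03 for the ubp8 null. UTP6, a component of the small subunit processome, was at 0.14 and read -0.01 ± 0.04, 0.27 ± 0.04 and -0.25 ± 0.04 in the same order. YTM1, an assembly factor of the large subunit, was at 0.15, with 0.04 ± 0.03, 0.32 ± 0.03 and -0.23 ± 0.03. SYO1, a carrier of ribosomal proteins, was at 0.15, and RER2, a prenyltransferase of dolichol synthesis, at 0.12.

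The polymerase genes were set beside 8 lists of related genes, described by counts alone. Of all ORFs 29.9% were called higher and 32.1% lower in the dot4 null. These shares were 30% and 28.7% in the ubp8 null, and 35.3% and 35.2% in the double null. Counts near these shares are no result about a list. RNA polymerase III makes transfer RNAs and the smallest of the ribosomal RNAs. Of 10 subunits specific to it, 8 were called higher in the dot4 null and 0 lower, with a median of 0.17. In the ubp8 null 0 were called higher and 6 lower, with a median of -0.11, and without centring 2 were lower. In each orientation alone 6 of the 8 calls held in the dot4 null, and 2 of the 6 in the ubp8 null, those of RPO31 and RET1. RPC53 (0.43 ± 0.04) and RPC34 (0.37 ± 0.03) led in the dot4 null. RPO31, the counterpart of RPA190, fell most in the ubp8 null (-0.47 ± 0.03) and was also lower in the double null (-0.30 ± 0.03), where 3 of these subunits were called higher and 1 lower, or 1 and 1 without centring. RPO31 was not called in the dot4 null, at 0.07 ± 0.03 (adjusted p = 0.0956).

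The 7 subunits specific to RNA polymerase II had a median of 0.01 in the dot4 null, with 3 higher and 1 lower, of which 1 call held in each orientation. In the ubp8 null their median was -0.13, with 2 higher and 4 lower, or 0 and 2 without centring. RPO21, the largest subunit, was at -0.26 ± 0.04 for the double null, -0.04 ± 0.04 for the dot4 null and -0.25 ± 0.04 for the ubp8 null, and the calls ended with channel 2 alone (-0.09 in both). Of the 7, 2 were called higher and 3 lower in double null cells, and 2 of these 5 calls held in each orientation, against 4 of 6 in the ubp8 null. Of the 5 subunits common to all 3 polymerases, RPB5 (0.28 ± 0.03) and RPB10 (0.17 ± 0.03) rose in the dot4 null, and 3 fell in the ubp8 null, RPB8 by most (-0.19 ± 0.04). Of these calls RPB5 in the dot4 null was the 1 that held in each orientation. Without centring 1 was lower in the ubp8 null and 0 were called by limma in double null cells. Of these 5, RPB5 (0.17 ± 0.03) and RPB10 (0.12 ± 0.03) were called in the double null, RPB10 not with channel 2 alone.

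Of the 9 other genes of RNA polymerase I initiation, 6 were called higher and 1 lower in the dot4 null, with a median of 0.13, but 0 of these 7 calls held in each orientation alone. They were led by RRN6 (0.25 ± 0.04) and RRN11 (0.23 ± 0.04) of the core factor, calls that ended with the null RNA in channel 2 alone. In the double null 2 were higher and 2 lower, and in the ubp8 null 3 were higher and 3 lower. Without centring these became 1 higher and 0 lower, and 1 and 1, and in each orientation alone 3 of the 4 and 3 of the 6 calls held. RRN5 of the upstream activating factor was the 1 gene called lower in the dot4 null (-0.15 ± 0.04), though its value was -0.03 with channel 1 alone (adjusted p = 0.728). RRN5 was called higher in the double null (0.32 ± 0.04) and the ubp8 null (0.24 ± 0.04). So were RRN9 in the double null (0.11 ± 0.03) and HMO1 in the ubp8 null (0.11 ± 0.04). Unlike those of RRN5, these calls did not hold in each orientation. RRN9 was at 0.035 with channel 2 alone (limma, adjusted p = 0.389) and HMO1 at 0.01 with channel 1 alone (adjusted p = 0.812). None of the 9 reached 1.5-fold in any strain. Of 10 transcription factor and repressor genes of RNA polymerase III, 4 were called higher and 3 lower in dot4 null cells, and 4 higher but 0 lower in ubp8 null cells, and 5 higher and 1 lower in the double null. Without centring limma called 1 for the double null, 3 for the dot4 null and 0 for the ubp8 null, and in each orientation alone 2 of 6, 2 of 7 and 1 of 4 calls held in the same order.

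Of 10 genes for proteins that act at the rDNA locus, 6 were called higher and 0 lower in the dot4 null, with TOP1, the topoisomerase, at 0.36 ± 0.03. In the ubp8 null 0 were higher and 6 lower, with RNT1, the nuclease that cuts the rRNA precursor, at -0.21 ± 0.03. The double null had 2 higher and 3 lower. Without centring the counts were 1 and 1 for the double null, 5 and 0 for the dot4 null, and 0 and 2 for the ubp8 null. In each orientation alone 2 of 5, 4 of 6 and 3 of 6 calls held in the same order. The core proteins of the snoRNPs, which modify ribosomal RNA, fell in the ubp8 null, 7 of 7 measured, with NOP58 at -0.41 ± 0.03. Of these 7, 3 rose in the dot4 null and the median was 0.08, and in the double null 1 rose and 4 fell. The 3 calls in the dot4 null did not hold in each orientation, and without centring 1 was higher there, 1 rose and 1 fell in double null cells, and 6 fell in ubp8 null cells.

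Regulators of the biogenesis regulon were read as well. Of 11 genes, 2 were called higher and 4 lower in the dot4 null, 0 higher and 7 lower in the ubp8 null, and 1 higher and 7 lower in the double null. Shares of all ORFs called higher and lower were 29.9% and 32.1%, 30% and 28.7%, and 35.3% and 35.2% in the same order. DOT6 and TOD6 encode paralogous repressors that bind the PAC element, a promoter motif first recognised in genes of RNA polymerases I and III. DOT6 was at -0.46 ± 0.04 for the double null, -0.42 ± 0.04 for the dot4 null and -0.05 ± 0.04 for the ubp8 null. TOD6 was at 0.09 ± 0.05, 0.36 ± 0.05 and -0.26 ± 0.05 in this order of strains. SFP1, an activator of the regulon, was at -0.32 ± 0.04 in the ubp8 null, and SCH9, a kinase that signals nutrient state, at -0.24 ± 0.03. Without centring the counts of regulators fell to 2 higher and 2 lower in the dot4 null, 0 and 3 in the ubp8 null, and 0 and 1 in the double null. In each orientation alone 3 of 8 calls held for the double null, 3 of 6 for the dot4 null and 4 of 7 for the ubp8 null.

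**Figure D4:**
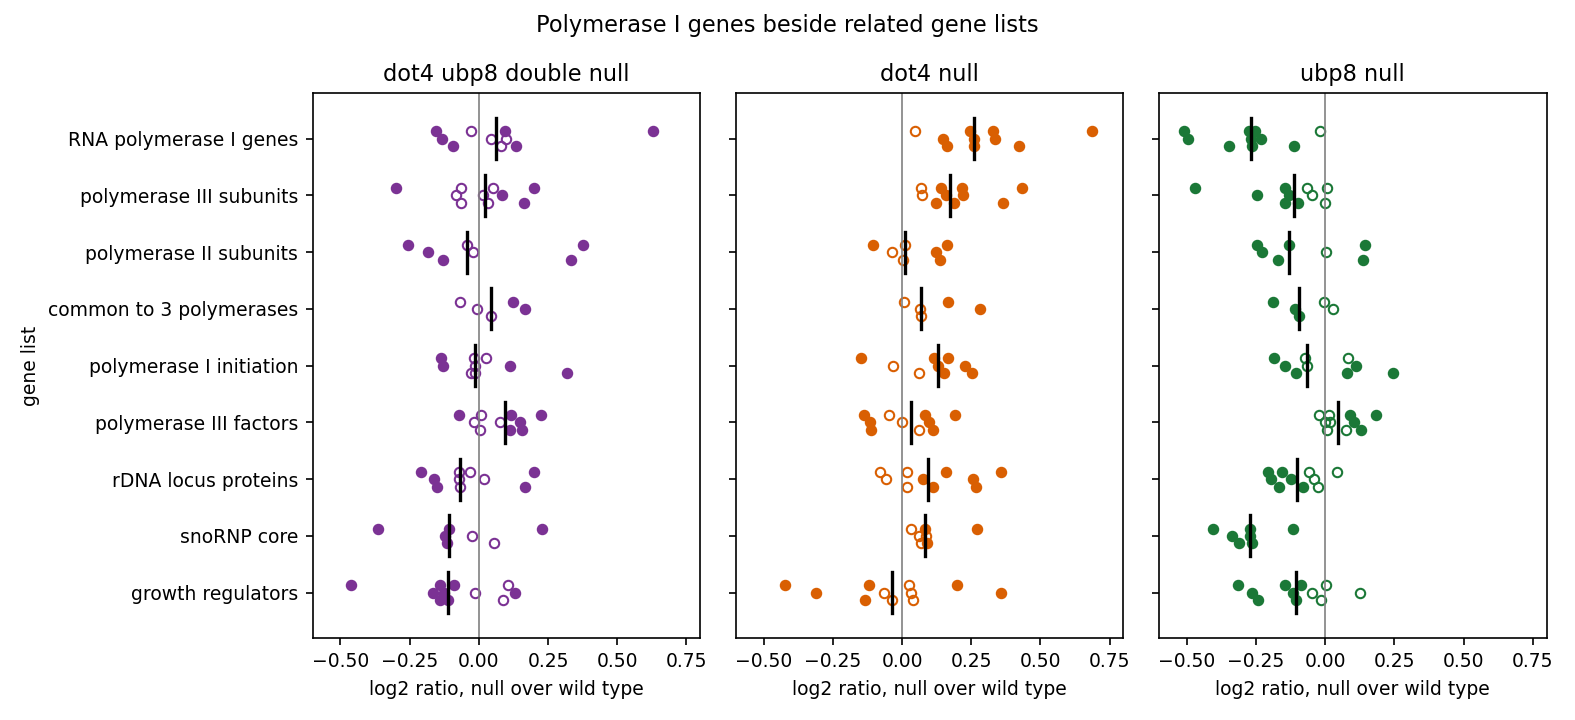
Log2 ratio of null over wild type (x axis) of each gene of the RNA polymerase I group and of 8 related lists (rows) in each null strain (panels), filled where called, with black bars for the median of a list. In the dot4 null the medians are 0.26 for RNA polymerase I, 0.17 for RNA polymerase III subunits and 0.01 for RNA polymerase II subunits.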

How the data were processed

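The values the authors deposited are log2 ratios, 1 for each ORF on each array. The sources used here do not state the background correction or normalization, and the columns were not centred (array medians -0.18 to 0.3). No channel intensities were used, so presence above background could not be read. The log2 scale was read from a stand-in value of 16.61, which occurred 2 times and was set to missing along with 9 empty values, none in the 10 genes. The number of arrays limits the precision.

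Each array was median-centred, ratios with the null RNA in channel 1 were multiplied by -1, and the arrays of a set were averaged. ORFs with at least 2 set means per genotype were kept, which was all 6205. R 4.3.3 and limma 3.58.1 (lmFit, eBayes) fitted a mean per genotype to 9 set means with 1 spread per ORF, each mean was tested against 0, and 4 contrasts were taken. The procedure was tested on simulated data. Symbols come from RefSeq's R64 gene table, which matched 5705 ORFs. Its coordinates were used only for the order of genes along chromosomes, because the deposited table names no build.

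The genes, the lists and the tests were chosen with earlier results of these data known. Named are the 10 genes, UBP10 and UBP8, up to 4 of the largest called genes of a list in each genotype, and the 5 ORFs nearest in profile. Outside this rule, URA3, ADE2, HIS3 and LEU2 were named as strain markers. RPO31, RPO21, RRN5, DOT6 and TOD6 are given in every strain after their values were seen. NOP10 was the 1 list gene without a row among 70. Promoter motifs were planned and not analysed here. Alternatives were no centring, centring outside the lists, a common spread, each orientation alone, a dye term, weights by genotype, robust moderation, leaving out sets or the array named above, and the set number as a block.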

Additional observations from a re-analysis of the deposited data

Results flagged for a closer look

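The null strains differed in their ratios to wild type by a direct test for most of the 10 genes, and these are the results to look at again. The dot4 null minus the ubp8 null was called for RRN3 (0.94), RPA190 (0.85), RPA135 (0.66), RPA43 (0.54), RPA34 (0.53), RPA12 (0.53), RPA14 (0.50), RPA49 (0.48), RPC19 (0.35) and RPC40 (0.32). Of these, the RPC19 call ended with channel 1 alone (0.08, limma adjusted p = 0.536). The double null minus the dot4 null was called for RPA190 (-0.49), RPA43 (-0.33), RPA135 (-0.29), RPA34 (-0.29), RPC19 (-0.23), RPA49 (-0.20), RPC40 (-0.14) and RPA12 (-0.13). Some of these calls were fragile. That of RPA12 ended without any 1 set of the dot4 null. Those of RPC40 and RPC19 ended without set 2 of the dot4 null or of the double null, among other alternatives. The double null minus the ubp8 null was called for RRN3 (0.88), RPA14 (0.43), RPA12 (0.40), RPA135 (0.36), RPA190 (0.36), RPA49 (0.28), RPA34 (0.25), RPA43 (0.21) and RPC40 (0.17). RRN3 in the double null minus the dot4 null was called under 1 alternative, channel 1 alone (-0.13, adjusted p = 0.0381). RPA14 in the same comparison was called by limma without set 1 of the double null (-0.14, adjusted p = 0.0207).

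A single array stood far from the other 5 of its strain for 1 gene. RPA12 in the ubp8 null read -0.08 on the array of set 2 with the null RNA in channel 2, and the other 5 arrays lay between -0.34 and -0.25. The gap to the nearest array was 0.633 of the whole range, above Dixon's critical value for 6 values at the 95% level. Of 30 groups of 6 arrays looked at this was the 1 such case, and a rule at that level picks about 1 in 20 groups by chance.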

How the results depend on the processing

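Over 1330 values of single genes under 19 alternatives, 1221 kept their direction and their side of the threshold, 64 lost a call, 18 gained one, 3 reversed and 24 changed sign without a call. The 3 reversals came with channel 1 alone, for RPC19 in the dot4 null (-0.03), and for RPC19 (0.01) and RPC40 (0.05) in the double null minus the dot4 null. The count of called genes moved by over 1.5 times in the following cases, and the cause was not tested. Without centring it was 1 in place of 6 in the double null, 5 in place of 9 in the double null minus the ubp8 null, and 0 in place of 3 against the sum of the single nulls. With channel 2 alone it was 5 in place of 3 against the sum. Leaving out 1 set gave 3 to 7 called genes in the double null, 8 to 9 in each single null, and 10 to 10 in the dot4 null minus the ubp8 null. It gave 5 to 8 in the double null minus the dot4 null, 8 to 9 in the double null minus the ubp8 null, and 2 to 5 against the sum. Without centring the median of all ORFs was 0.09 (against -0.02) in the dot4 null minus the ubp8 null, a move of over 0.1, and -0.10 (against -0.01) in the double null minus the dot4 null. The number of all ORFs called was then 2368 in place of 3850 in the dot4 null, 1582 in place of 3642 in the ubp8 null, 1913 in place of 3604 between the single nulls, 1983 in place of 3614 and 934 in place of 2738 in the double null minus the dot4 null and minus the ubp8 null, and 227 in place of 1262 against the sum. With channel 2 alone it was 2287 in the ubp8 null and 2107 against the sum, where leaving out set 2 or 3 of the dot4 null or set 2 of the ubp8 null gave 803, 730 and 756. The 9 correlations between same-numbered sets of different strains ranged from -0.26 to 0.27, so the set numbers were not taken to pair samples. With the set number as a replicate block the calls were 6 for the double null, 9 for the dot4 null, 9 for the ubp8 null, 7 for the double null minus the dot4 null and 2 against the sum, and those lost were RPA12 (-0.13, adjusted p = 0.0593) and RRN3 (0.20, adjusted p = 0.0684). The fit has a single spread per ORF, while the SD between set means had a median over ORFs of 0.064 for the double null, 0.041 for the dot4 null and 0.052 for the ubp8 null. Motifs in promoter windows, planned with their alternative, were not run.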
